A study of Mus musculus with 16 samples.

Results

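Peg3, Zim1, Usp29, Mest, Peg10, Sgce and Asb4 are 7 imprinted genes of 3 mouse loci. These are the Peg3 domain on chromosome 7 and the Mest and Peg10 loci on chromosome 6. They were taken from the deposited count table by gene symbol, and all 7 were found among its 23100 genes, each as 1 entry. The table covers 16 RNA-seq libraries of mouse embryonic fibroblasts (MEFs), cells cultured from E13.5 embryos and labelled as strain C57BL/6, with 2 wildtype lines (Zac+/+) and 2 Zac1 mutant lines (Zac+/-). Each line was harvested in the proliferative state at day 2 in vitro and in the quiescent state at days 8, 10 and 12, all in DMEM with serum. The mutant lines carry the title code KOpat, which the labels do not expand, and within each genotype replicate 1 is a line with the letter I and replicate 2 a line with the letter L. The labels do not say what the letters mark or whether each line came from a single embryo, so p-values measure the spread between these cultures.

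Genomic imprinting is the expression of a gene from the maternal or the paternal copy, set by DNA methylation that differs between the copies. In the Peg3 domain, Peg3 encodes a large zinc finger protein, Usp29 a ubiquitin-specific protease and Zim1 another zinc finger protein; Peg3 and Usp29 are transcribed from the paternal copy and Zim1 mainly from the maternal copy. Mest (also called Peg1), a paternally expressed gene, encodes a membrane protein of the endoplasmic reticulum of the hydrolase fold family, and its intron holds the microRNA gene Mir335. At the Peg10 locus the paternally expressed Peg10, derived from a retrotransposon, and Sgce, which encodes epsilon-sarcoglycan, share a promoter region, while Asb4, which encodes a substrate adaptor of a ubiquitin ligase, is expressed mainly from the maternal copy. Zac1 (gene symbol Plagl1) is itself a paternally expressed zinc finger transcription factor, and the study compared wildtype and mutant cells in both growth states. The counts do not separate the parental copies, so each value below is the sum of both.

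RefSeq promoter windows of 300 bases, from 250 bases before to 50 after a transcript's start, were available for Peg3, Zim1, Usp29, Mest and Asb4. The windows of the 3 genes with the largest changes between growth states (Mest, Zim1, Peg3) and of Usp29, which starts beside Peg3, are shown 5′ to 3′ on each gene's own strand. Capitals mark GGGGCCCC, a palindrome that Zac1 is known to bind. Coordinates are those of the RefSeq table's build, GRCm38.p6, and not of the build mm9 named for the counts.
Peg3, chr7:6730370-6730669, minus strand: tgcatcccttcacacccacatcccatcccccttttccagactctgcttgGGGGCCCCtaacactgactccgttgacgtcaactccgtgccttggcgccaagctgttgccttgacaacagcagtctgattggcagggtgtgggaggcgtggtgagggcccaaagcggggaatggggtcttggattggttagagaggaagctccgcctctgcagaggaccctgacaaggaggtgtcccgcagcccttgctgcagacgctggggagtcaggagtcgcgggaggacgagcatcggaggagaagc
Usp29, chr7:6730333-6730632, plus strand: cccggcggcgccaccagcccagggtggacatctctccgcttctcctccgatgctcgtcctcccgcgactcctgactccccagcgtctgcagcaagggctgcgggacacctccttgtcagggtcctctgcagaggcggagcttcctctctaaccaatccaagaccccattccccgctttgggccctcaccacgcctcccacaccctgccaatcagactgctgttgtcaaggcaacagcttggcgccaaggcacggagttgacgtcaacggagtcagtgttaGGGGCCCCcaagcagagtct
Zim1, chr7:6696383-6696682, minus strand: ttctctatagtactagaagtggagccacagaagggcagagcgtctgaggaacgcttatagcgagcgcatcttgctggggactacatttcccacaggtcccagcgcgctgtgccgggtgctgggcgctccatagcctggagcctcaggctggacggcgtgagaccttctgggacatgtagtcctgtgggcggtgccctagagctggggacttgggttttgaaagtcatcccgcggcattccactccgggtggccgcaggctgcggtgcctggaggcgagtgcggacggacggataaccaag
Mest, chr6:30737800-30738099, plus strand: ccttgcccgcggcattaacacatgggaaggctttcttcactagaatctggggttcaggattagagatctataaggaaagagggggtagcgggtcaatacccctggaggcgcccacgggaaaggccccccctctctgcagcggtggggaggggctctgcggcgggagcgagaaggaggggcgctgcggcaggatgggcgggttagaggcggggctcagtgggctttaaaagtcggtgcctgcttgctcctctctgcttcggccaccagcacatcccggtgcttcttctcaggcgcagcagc
The Peg3 and Usp29 starts lie 164 bases apart on opposite strands, and their windows share 263 bases. GGGGCCCC stood within the shared bases, 201 bases before the Peg3 start and 30 bases after the Usp29 start, so a single palindrome falls in both windows. It was in neither the Zim1 window, the Mest windows nor the Asb4 windows, and it was found in 354 of 32851 RefSeq mouse promoter windows (1.08%). GCCATNTT, the core motif of the factor YY1 searched on both strands, was in none of these genes' windows and in 6.05% of all windows. Sequence beyond the windows, introns included, was not searched for either motif. The windows of Peg3, Zim1 and Usp29 held 13, 20 and 17 CpG dinucleotides and the Mest window shown held 17, against a median of 7 over all windows. Of all windows, 62.1% held fewer than that of Peg3, 73.5% fewer than that of Zim1 and 68.6% fewer than those of Usp29 and Mest. The window of an upstream Mest start held 8, and the Asb4 windows held 6 and 8. These matches are descriptions of the letters in the windows and do not show binding.

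The libraries held 28079241 to 61039793 counted reads. Plagl1, the check of the labels, lay between 37.7 and 230.7 CPM (counts scaled to library size) in the wildtype libraries and between 7.60 and 60.3 CPM in the mutant libraries, and within each day every mutant library lay below every wildtype library. The mutant lines therefore retained Plagl1 reads, with a log2 difference from wildtype of -2.31 (SE 0.16, edgeR adjusted p = 8.50e-04) at day 2 while in the quiescent sums it was -1.88 (SE 0.15, adjusted p = 0.00297). All 10 fibroblast markers were detected, with summed levels of 21330 to 24240 CPM at day 2 and 47940 to 57440 CPM in the quiescent lines, and all 7 proliferation genes on a list headed by Mki67 fell in both genotypes. The 6 macrophage and blood markers in the table summed to 7.51 to 83.7 CPM per line at day 2 and 29.0 to 231 CPM at quiescence. In such bulk samples a change in the number of cells of a type and a change in RNA per cell cannot be told apart.

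For the comparison of states, the counts of days 8, 10 and 12 were summed within each line, giving 4 proliferative and 4 quiescent values per gene from the same 4 lines. Dividing by exon length allows levels to be ordered between genes. In the quiescent lines Mest stood highest at 199 ± 72.4 CPM per kilobase (SD, n = 4 lines, both genotypes), above Peg3 at 46.5 ± 5.24 and Sgce at 35.7 ± 2.80. Zim1 at 7.57 ± 1.41 and Peg10 at 6.75 ± 1.04 CPM per kilobase did not differ beyond their spread, and Asb4 at 1.86 ± 0.41 and Usp29 at 0.124 ± 0.028 were lowest. In the proliferative lines the order was different, with Sgce highest at 18.4 ± 0.67 CPM per kilobase, then Peg3 at 11.4 ± 1.96 and Peg10 at 11.2 ± 0.60, which overlapped. Mest then stood at 4.96 ± 0.52, Asb4 at 2.27 ± 0.34, Zim1 at 0.787 ± 0.156 and Usp29 at 0.0819 ± 0.018 CPM per kilobase.

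Between growth states the 7 genes did not all move in the same direction, and the opposite directions lay within the Peg10 locus. Peg3, Zim1, Mest and Sgce rose in quiescent cells and Peg10 fell, in wildtype and in mutant lines alike, while Usp29 and Asb4 passed the test in neither genotype. Thus 5 of the 7 genes were called at an adjusted p under 0.05 in wildtype lines, where 47.6% of the 15740 genes tested were called (23.9% higher and 23.7% lower). The same 5 were called in mutant lines, where 42.1% of genes were called (21.1% higher and 21% lower). Being called was therefore common in this comparison. The median log2 change over all genes was 0.05 in both genotypes.

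**Figure D1:**
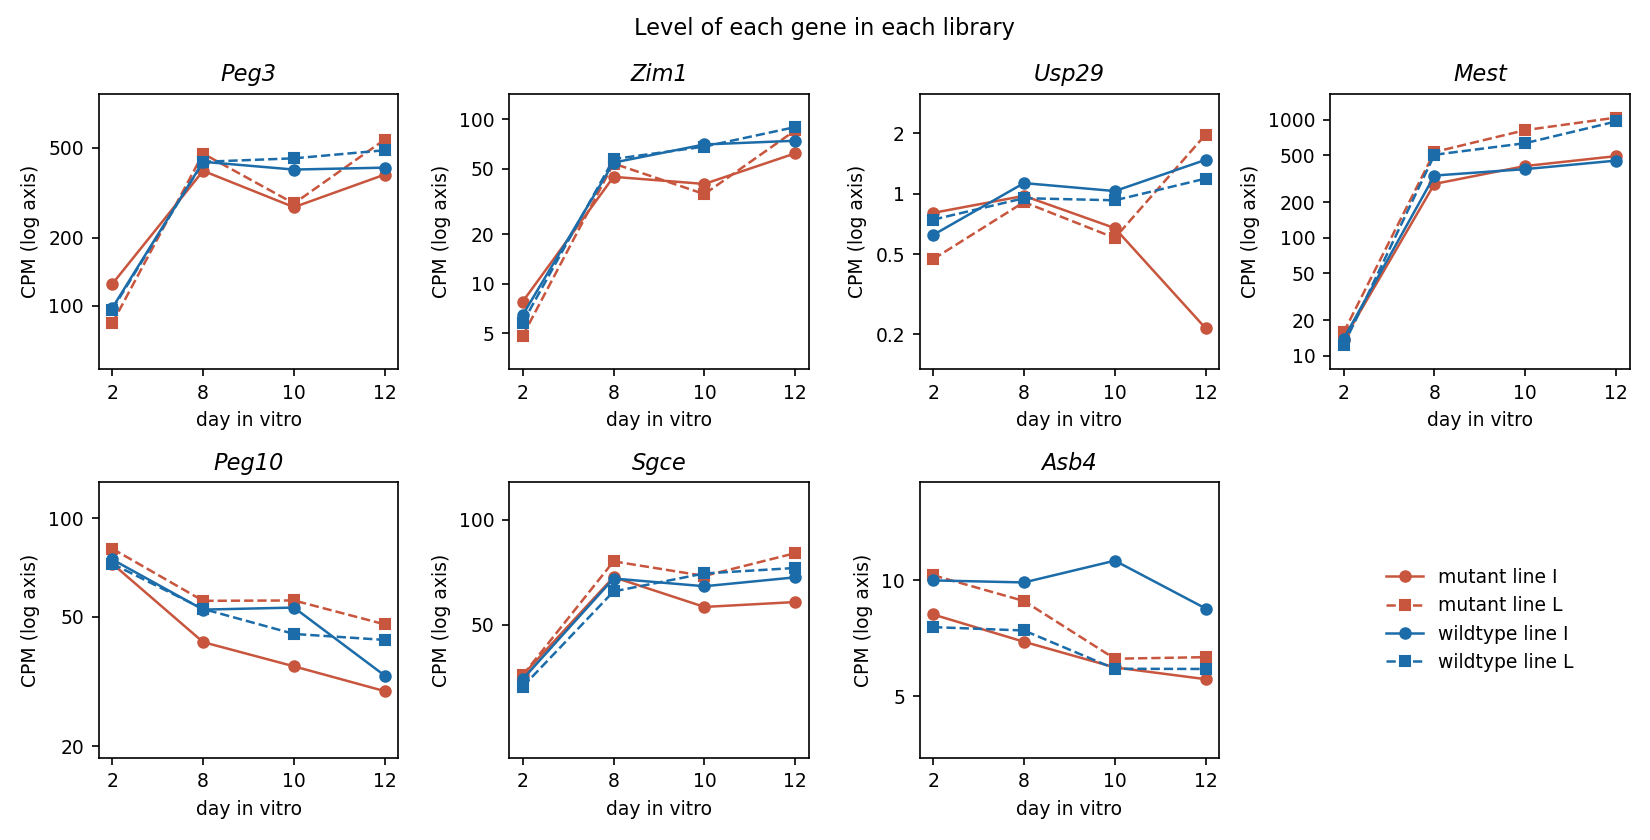
Level of each gene in each of the 16 libraries, in CPM on a log axis, against day in vitro; colours give the genotype, and circles with solid lines and squares with dashed lines the lines I and L. Mest lies between 12.3 and 15.8 CPM at day 2 and between 286 and 1042 CPM afterwards, Peg10 lies lower on every later day of a line than at its day 2, and Peg3 and Zim1 of both mutant lines dip at day 10.

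Peg3, whose protein binds DNA and is best known for its roles in growth and maternal behaviour, was at 97.6 and 96.0 CPM in the wildtype lines at day 2 (line I first, here and below). It reached 434 and 434 CPM at day 8, 400.5 and 449 at day 10 and 408.5 and 488 at day 12. In the mutant lines Peg3 was at 124.7 and 83.5 CPM at day 2, 395 and 471 at day 8, 273 and 283 at day 10 and 381 and 544 at day 12. Every quiescent library thus lay above every proliferative library. The log2 change was 2.17 (SE 0.18) in wildtype lines, a 4.50-fold rise with adjusted p = 1.40e-05 by edgeR's quasi-likelihood test, and 1.87 (SE 0.18, adjusted p = 4.17e-05) in mutant lines.

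Zim1, the neighbouring zinc finger gene expressed from the opposite parental copy, was at 6.46 and 5.80 CPM in the wildtype lines at day 2. It then stood at 54.5 and 57.2 CPM at day 8, 70.3 and 68.2 at day 10 and 74.0 and 89.6 at day 12. The mutant lines held 7.79 and 4.83 CPM of Zim1 at day 2, 44.7 and 53.8 at day 8, 40.4 and 35.1 at day 10 and 62.1 and 85.6 at day 12. The states did not overlap in any line, and the rise was larger than that of Peg3 in each line. Its log2 change was 3.50 (SE 0.21, adjusted p = 2.31e-06), an 11.3-fold rise, in wildtype lines and 3.03 (SE 0.21, adjusted p = 6.36e-06) in mutant lines.

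Usp29, which starts beside Peg3 and is transcribed away from it, was counted at only 7 to 85 reads per library. At day 2 the wildtype lines held 0.625 and 0.744 CPM and the mutant lines 0.805 and 0.474 CPM. The wildtype quiescent libraries held 0.929 to 1.48 CPM with a median of 1.08, and the mutant ones 0.214 to 1.98 CPM with a median of 0.793. Both extremes were mutant libraries of day 12, line I lowest and line L highest, so the mutant values of the states overlap. The log2 change was 0.71 (SE 0.43, 95% interval -0.25 to 1.67, adjusted p = 0.199) in wildtype and 0.49 (SE 0.44, 95% interval -0.49 to 1.47, adjusted p = 0.400) in mutant lines. At this depth a Usp29 rise as large as that of Peg3 lies outside both intervals, and a smaller one cannot be told from none.

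The ratio of counts within the Peg3 domain does not depend on the scaling of libraries. Zim1 counts were 5.78% to 6.62% of Peg3 counts in the 4 day 2 libraries and 11.3% to 18.4% in the 12 quiescent libraries, with no overlap. The mean log2 change of this ratio over the 4 lines was 1.24 ± 0.11 (SD), higher in 4 of 4. Usp29 counts moved the other way against Peg3, from 0.567% to 0.776% at day 2 to between 0.0563% and 0.363% in quiescent libraries, a log2 change of -1.43 ± 0.35 and lower in 4 of 4 lines. An exact sign-flip permutation test over 4 lines gives p = 0.125 for each ratio, the smallest it can give, so these ratio changes are reported by their size and direction.

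**Figure D2:**
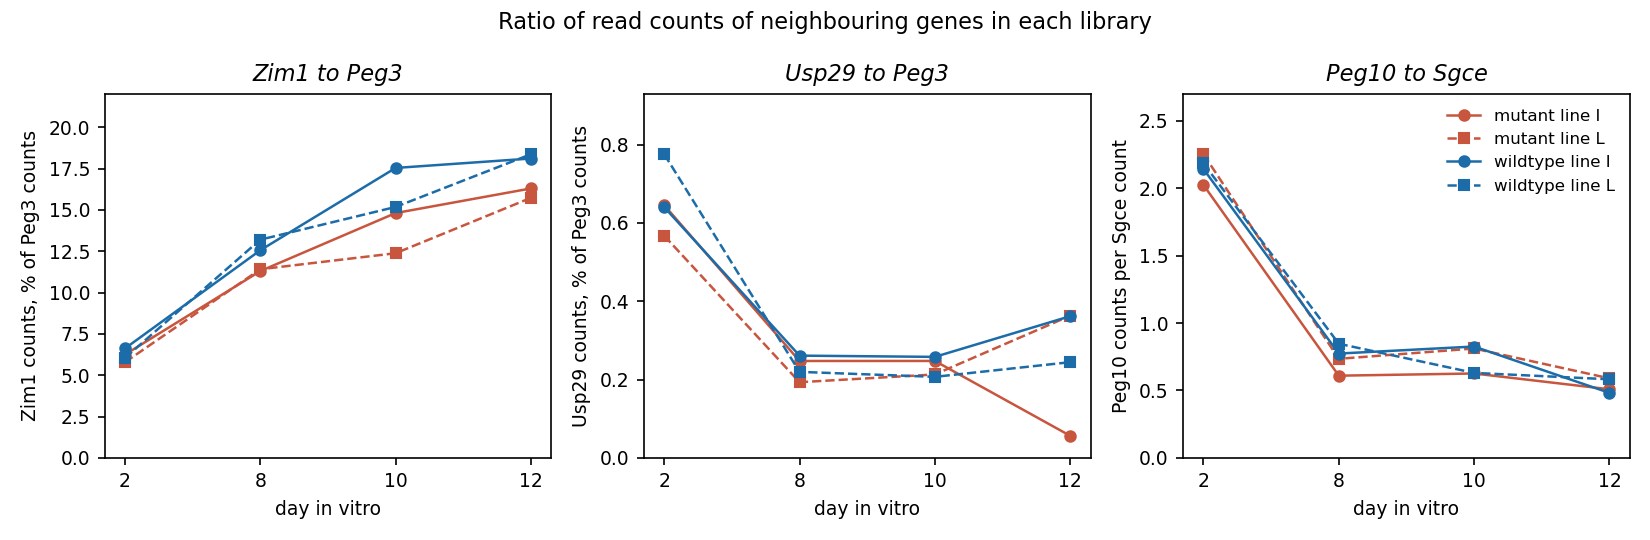
Ratio of read counts of neighbouring genes in each library against day in vitro, with Zim1 and Usp29 as a percentage of Peg3 counts and Peg10 per Sgce count; symbols as in the plot of levels by day. In all 4 lines the Zim1 share is higher and the other ratios are lower on days 8, 10 and 12 than on day 2.

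Mest showed the largest rise of the 7 genes. The wildtype lines held 13.9 and 12.3 CPM at day 2, 336 and 504.5 at day 8, 381 and 633 at day 10 and 450.2 and 967 at day 12. The mutant lines held 13.6 and 15.8 CPM at day 2, 286 and 532 at day 8, 405 and 816 at day 10 and 491 and 1042 at day 12. No quiescent library came near the proliferative range, and on each quiescent day both L lines lay above both I lines. The log2 change was 5.39 (SE 0.48, a 41.8-fold rise, adjusted p = 2.57e-04) in wildtype and 5.27 (SE 0.48, adjusted p = 3.55e-04) in mutant lines. By size of log2 change Mest ranked 258th of 15740 genes in wildtype and 209th in mutant lines, and Zim1 509th and 552nd.

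Mir335 lies in a Mest intron on the same strand, and Klf14, a transcription factor gene, lies farther along the locus. The mature microRNA is shown because its host gene carries the largest change, with its seed (bases 2 to 8) in capitals; RefSeq places it at chr6:30741314-30741336, plus strand, in GRCm38.p6.
mmu-miR-335-5p: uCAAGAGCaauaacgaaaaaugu
Mir335 was counted at 0 reads in all 4 day 2 libraries and at 89 reads over the wildtype and 60 over the mutant quiescent libraries. Against a floor of 3 counts over the group, this was at least 8.60-fold higher in wildtype and 5.59-fold higher in mutant lines, in CPM. A single quiescent library, mutant line I at day 10, also held 0 reads. These reads come from libraries of longer RNA over the hairpin, so they may be Mest intron and do not measure the mature microRNA. Klf14 likewise went from 0 reads at day 2 to 53 and 64 reads, at least 5.12-fold and 5.96-fold higher.

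Peg10 moved against Mest, Peg3 and its own neighbour Sgce. Its wildtype lines held 74.7 and 72.5 CPM at day 2, 52.5 and 52.7 at day 8, 53.3 and 44.2 at day 10 and 33.0 and 42.4 at day 12. Its mutant lines held 72.6 and 80.7 CPM at day 2, 41.7 and 55.8 at day 8, 35.2 and 56.0 at day 10 and 29.5 and 47.3 at day 12. Every quiescent library lay below every proliferative library. The log2 change was -0.68 (SE 0.16, adjusted p = 0.00642) in wildtype and -0.77 (SE 0.16, adjusted p = 0.00411) in mutant lines. The wildtype call did not hold without wildtype line I (adjusted p = 0.0953) or without wildtype line L (adjusted p = 0.0682), with log2 changes of -0.66 and -0.74.

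Sgce, which encodes a sarcoglycan subunit also made outside muscle, was at 34.9 and 33.2 CPM in wildtype and 35.8 and 35.8 CPM in mutant lines at day 2. Its quiescent levels were 62.3 to 72.8 CPM with a median of 68.1 in wildtype and 56.3 to 80.3 CPM with a median of 68.8 in mutant libraries. All quiescent libraries lay above all proliferative ones. The log2 change was 0.99 (SE 0.12, adjusted p = 9.45e-05) in wildtype and 0.92 (SE 0.12, adjusted p = 1.96e-04) in mutant lines. Peg10 counts fell from 2.02 to 2.25 per Sgce count at day 2 to 0.482 to 0.846 in the quiescent libraries, and the log2 change of this ratio was -1.69 ± 0.05 (SD, n = 4 lines), the narrowest spread of the 5 ratios computed.

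Asb4 was at 10.0 and 7.56 CPM in wildtype and 8.16 and 10.3 CPM in mutant lines at day 2. Its quiescent levels were 5.89 to 11.3 CPM with a median of 7.93 in wildtype and 5.54 to 8.84 CPM with a median of 6.29 in mutant libraries. Single libraries of the 2 states overlapped in both genotypes. The mutant sums did not, at 8.07 and 10.3 CPM in proliferation and 6.19 and 7.17 CPM at quiescence, as for 33.6% of genes in this direction. The log2 change was -0.12 (SE 0.24, 95% interval -0.66 to 0.42, adjusted p = 0.713) in wildtype and -0.46 (SE 0.24, 95% interval -1.003 to 0.079, adjusted p = 0.153) in mutant lines. Wildtype line I alone stayed above 8 CPM on every day.

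**Figure D3:**
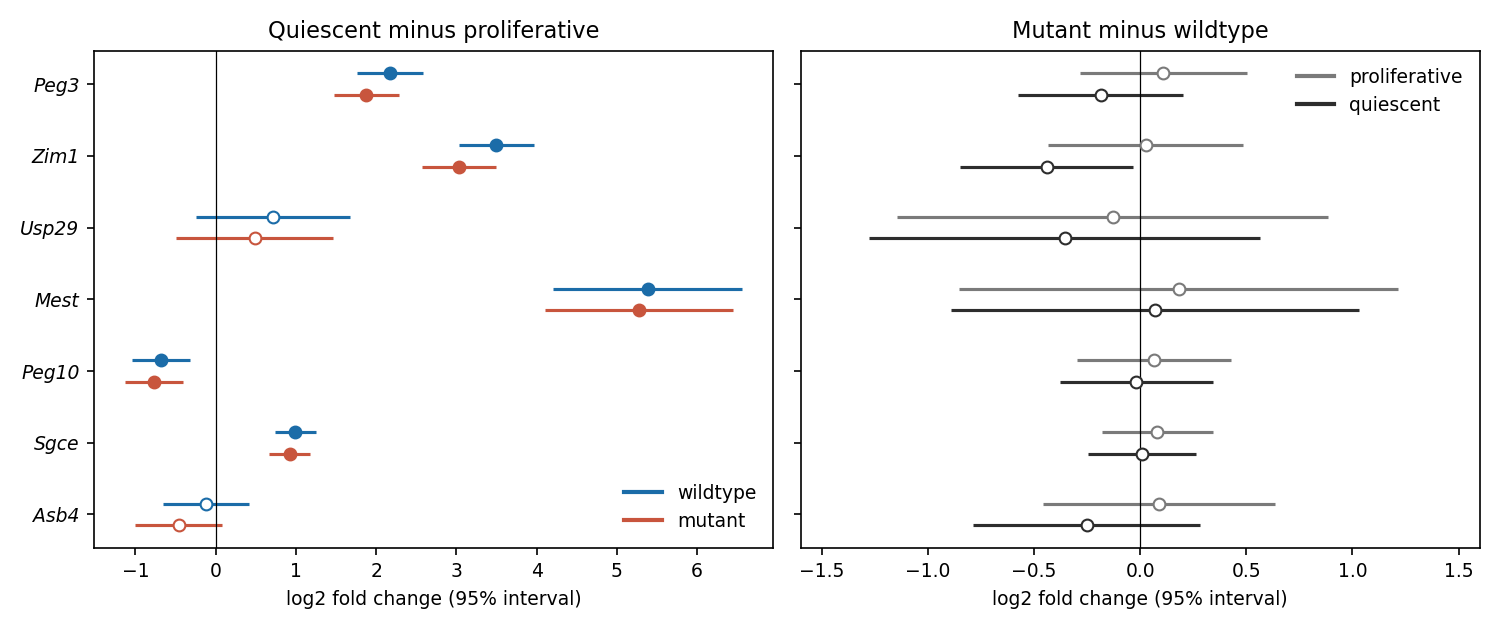
Log2 fold changes with 95% intervals between states in each genotype and between genotypes in each state; filled points passed an adjusted p under 0.05 and open points did not. All filled points are in the comparison of states (Peg3, Zim1, Mest and Sgce to the right, Peg10 to the left), and all 14 intervals between genotypes except that of Zim1 at quiescence span 0.

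Other genes of the 3 loci were examined as a list of 21 neighbours, of which 16 were in the table and 11 passed the filter on low counts. In wildtype lines 6 of the 11 rose and 1 fell (47.6% of all genes called). In mutant lines the numbers were the same (42.1% of all genes called), with list medians of 0.61 and 0.75. Beside Peg10, Ppp1r9a, which encodes neurabin, rose by 1.05 (adjusted p = 0.00239) on the log2 scale in wildtype lines, the esterase gene Pon3 by 1.15 (adjusted p = 8.94e-04) and the dynein chain gene Dync1i1 by 2.08 (adjusted p = 4.27e-04). Tfpi2, a protease inhibitor gene of the same region, fell by 3.44 (adjusted p = 0.0367), from 8.50 ± 5.88 to 0.779 ± 0.635 CPM (SD, n = 2 lines). Copg2, the coatomer gene next to Mest, rose by 0.61 (adjusted p = 0.00559), from 38.7 to 58.9 CPM, far less than Mest. Mir335 and Klf14 make up the 6. Both had 0 reads at day 2 and passed the filter by their quiescent counts alone, so they could be called only as rises. The 7 calls were made in mutant lines too, with Copg2 at 0.75, Ppp1r9a at 1.28, Pon3 at 1.24, Dync1i1 at 2.15 and Tfpi2 at -3.70.

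Among 19 other genes of the imprinted gene network, 8 rose and 4 fell in wildtype lines (47.6% of all genes called). In mutant lines 7 rose and 3 fell (42.1% of all genes called), and the medians were 0.23 and 0.27. Decorin (Dcn), a matrix proteoglycan gene, rose most, by 4.44 on the log2 scale in wildtype lines (adjusted p = 1.27e-05), from 14.2 to 305 CPM. The noncoding RNA gene H19 rose by 3.32 (adjusted p = 0.00297), Igf2, a growth factor gene, by 1.83 (adjusted p = 2.51e-04), and Plagl1 itself by 2.15 (adjusted p = 4.07e-06). Meg3 and Cdkn1c both rose by 1.39 and Igf2r by 0.90, and Mirg rose by 0.51 in wildtype lines (adjusted p = 0.0204). Magel2 fell (adjusted p = 0.00470 in wildtype), and in mutant lines it went from 25 reads at day 2 to 0, at least 29.8-fold lower. The creatine synthesis gene Gatm fell by 2.40 (adjusted p = 0.00133), the amino acid transporter gene Slc38a4 by 1.17 (adjusted p = 0.00102) and Phlda2 by 2.53 (adjusted p = 0.0350), all in wildtype lines. Among this list and the 7 genes described, Peg10 and these 4 were the 5 called lower in wildtype lines. The log2 change of Peg10 was smaller than those of Gatm and Slc38a4. Magel2 went from 0.517 to 0.0280 CPM and Phlda2 from 0.356 to 0.0610 CPM in wildtype lines, near the floor at quiescence. Both passed the filter by their day 2 counts alone, so they could be called only as falls and the sizes of these are uncertain.

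The complex that Sgce belongs to, the sarcoglycan and dystrophin complex, was followed through 14 other genes, all tested. In wildtype lines 10 rose and 1 fell (47.6% of all genes called). In mutant lines 7 rose and 1 fell (42.1% of all genes called), and the medians were 0.85 and 0.91. The partner sarcoglycan gene Sgcb rose by 1.46 (adjusted p = 6.23e-05) on the log2 scale in wildtype lines, sarcospan (Sspn) by 1.69 (adjusted p = 2.08e-05), the syntrophin gene Sntb1 by 3.75 (adjusted p = 2.01e-05) and Sntb2 by 0.81 (adjusted p = 2.94e-04). Sgca rose by 3.14, Sgcd by 0.72, the dystroglycan gene Dag1 by 0.90 and dystrophin (Dmd) by 0.67. The dystrobrevin gene Dtnb fell by 0.57 (adjusted p = 0.0342). 

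A further list held 8 tested genes that, like Peg10, derive from a retrotransposon gag gene or a related Pnma gene. Of these, 3 rose and 0 fell in wildtype (47.6% of all genes called) and 2 rose and 1 fell in mutant lines (42.1%). Zcchc5 rose by 3.38 on the log2 scale in wildtype lines (adjusted p = 2.31e-06), from 6.78 to 70.2 CPM, Ldoc1l by 0.97 (adjusted p = 0.00632), and the imprinted Rtl1 by 4.14 (adjusted p = 0.0222) at 0.0314 to 0.582 CPM. Zcchc16 fell by 3.41 (adjusted p = 0.0150) in mutant lines. Of 11 tested partners and relatives of Asb4, 1 rose and 3 fell in wildtype (47.6% of all genes called). In mutant lines 0 rose and 2 fell (42.1% of all genes called). Those that fell in wildtype lines were Tceb1, an elongin gene whose product links such adaptors to the ligase, by 0.79 (adjusted p = 0.00137), Tceb2 by 0.36 (adjusted p = 0.0221) and Asb6 by 0.72 (adjusted p = 0.00106). Asb7 rose by 0.39 (adjusted p = 0.0343). Tceb1 and Asb6 were the 2 in mutant lines.

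Among 9 tested genes that maintain imprints or regulate the Peg3 domain, 2 rose and 3 fell in wildtype lines (47.6% of all genes called). In mutant lines 1 rose and 4 fell (42.1% of all genes called). Uhrf1, which brings the maintenance methyltransferase to newly copied DNA, fell by 2.31 (adjusted p = 3.51e-06) on the log2 scale in wildtype lines, from 129 to 26.0 CPM, and Dnmt1, that methyltransferase, by 1.47 (adjusted p = 1.33e-05), from 202.8 to 73.2 CPM. Trim28, a corepressor, fell by 0.64 (adjusted p = 0.00138). Dnmt3a, which methylates DNA anew, rose by 1.61 (adjusted p = 2.10e-05), and the zinc finger gene Zfp445 by 0.48 (adjusted p = 0.0234). In mutant lines Zfp57 fell as well, by 0.60 (adjusted p = 0.0222). All 7 proliferation genes (Mki67, Top2a, Rrm2, Ccnb1, Aurka, Mcm5 and Pcna) fell with them, with a median log2 change of -2.33 in wildtype lines and summed levels of 1325 to 1587 CPM at day 2 and 334 to 365 CPM at quiescence. The part of cycling cells in these falls was not tested.

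**Figure D4:**
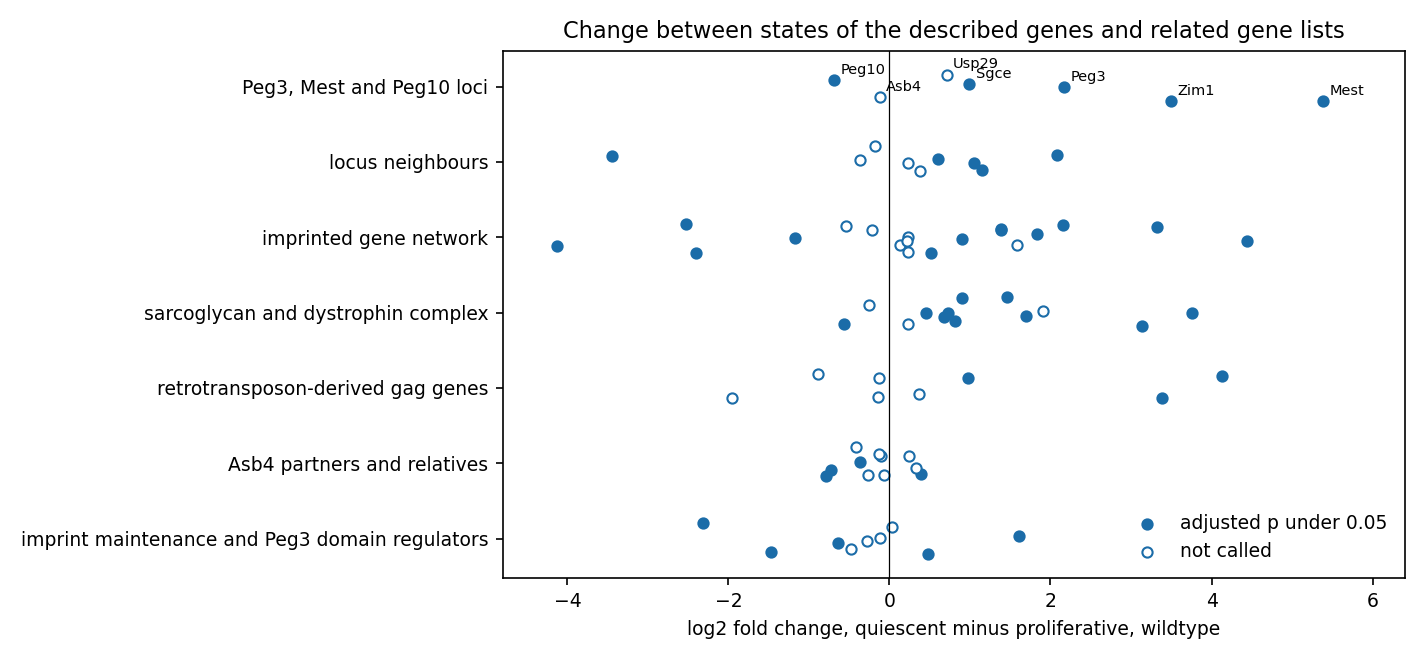
Log2 change between states in wildtype lines, 1 point per gene, for the 7 genes (named) and for the related lists; filled points passed an adjusted p under 0.05, vertical scatter within a list has no meaning, and genes with 0 reads in all proliferative wildtype lines are left out. Mest lies at 5.39, to the right of every other gene plotted, and Peg10 at -0.68.

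Between genotypes 0 of the 7 genes passed the test in either state, where 0.00635% of 15740 genes, Plagl1 alone, did so by edgeR. At an unadjusted p under 0.05 there were 451 genes in proliferation and 76 at quiescence. At day 2 the log2 differences, mutant minus wildtype, lay between -0.13 (Usp29) and 0.18 (Mest). At quiescence they were -0.19 (SE 0.17) for Peg3, -0.44 (SE 0.18) for Zim1, -0.36 (SE 0.41) for Usp29 and 0.07 (SE 0.39) for Mest. For Peg10, Sgce and Asb4 they were -0.02 (SE 0.16), 0.01 (SE 0.11) and -0.25 (SE 0.24), all with adjusted p = 1. The precision differed. At quiescence the 95% interval ran from -0.25 to 0.26 for Sgce and from -0.89 to 1.03 for Mest. A change of 2-fold in Mest in either direction is close to the bounds of the latter. This test held no term for the letter of a line, so its Mest interval includes the spread between letters. Paired by letter, the quiescent Mest sums were 388 CPM (wildtype) against 373 CPM (mutant) for I. For L they were 690.3 against 759 CPM. Each pair is 1 line per genotype.

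Zim1 was the gene nearest to a difference. Its quiescent sums were 65.7 and 70.6 CPM in wildtype and 46.3 and 54.2 CPM in mutant lines, which do not overlap, as for 9.81% of genes in this direction. Its unadjusted p was 0.0372 against an adjusted p of 1, and the smallest p that permuting 2 lines against 2 allows is 0.333. The change between states did not differ between genotypes for any of the 7 genes at an adjusted p under 0.05 (0 of 15740 genes called, 0%; 265 at an unadjusted p under 0.05). The largest such difference was that of Zim1, at -0.47 (SE 0.27).

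By day, the genotypes lay farthest apart in the Peg3 domain at day 10, though no gene of it passed the test. The 2 mutant lines held 273 and 283 CPM of Peg3 at day 10 against 400.5 and 449 CPM in wildtype, 40.4 and 35.1 CPM of Zim1 against 70.3 and 68.2 CPM, and 0.676 and 0.604 CPM of Usp29 against 1.03 and 0.929 CPM. Thus 3 of the 7 genes, those of the Peg3 domain, did not overlap between genotypes in the lower direction, as did 17.5% of all genes at day 10. The log2 difference was -0.61 (SE 0.19) for Peg3 and -0.87 (SE 0.20) for Zim1, with an adjusted p of 0.475 for both by edgeR, and -0.61 (SE 0.67, adjusted p = 0.785) for Usp29. At an unadjusted p under 0.05 stood 9.76% of the 15439 genes tested in single libraries, against 1.79% at day 8 and 1.47% at day 12. Peg3 differed by -0.00 (SE 0.19) at day 8 and 0.04 (SE 0.19) at day 12, and Zim1 by -0.18 (SE 0.19) and -0.15 (SE 0.19). Zim1 at day 10 passed an adjusted p under 0.05 in DESeq2 (0.0104) and when mutant line I was left out (0.0195), and in no other alternative run. Without line I a single mutant library remained at day 10, which is assumed to vary like the other groups. A comparison of day 10 with days 8 and 12, added after these values were seen, gave -0.63 (SE 0.23, adjusted p = 0.442) for Peg3 and -0.71 (SE 0.24, adjusted p = 0.436) for Zim1. In these fits of single libraries, repeat harvests of a line count as independent.

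Within the quiescent period, day 12 was compared with day 8 over the 4 lines. Zim1 rose in 4 of 4 lines, 1.36-fold to 1.59-fold, with a log2 difference of 0.57 (SE 0.14, adjusted p = 0.0394), and it was the 1 gene of the 7 called, where 3.12% of genes were. The call did not hold without wildtype line I (adjusted p = 0.294) or without wildtype line L (adjusted p = 0.479), while the log2 difference stayed between 0.51 and 0.61 when each line was left out. Mest was higher at day 12 in 4 of 4 lines, 1.34-fold to 1.96-fold (log2 0.83, SE 0.37, adjusted p = 0.361). Peg10 was lower in 4 of 4 lines, at 0.628 to 0.847 of its day 8 level (log2 -0.41, SE 0.17, adjusted p = 0.279), and Asb4 was lower in 4 of 4, at 0.715 to 0.856 (log2 -0.34, SE 0.21, adjusted p = 0.522). With the cell line as a block, which pairs the harvests of a line, Mest (0.79, adjusted p = 0.0106) and Peg10 (-0.42, adjusted p = 0.0346) passed as well, so 3 of the 7 were called. That run called 943 of the 15439 genes tested, against 482 without the block. All 7 proliferation genes were lower at day 12, with 6 called and a median log2 difference of -1.01. The 6 macrophage and blood markers had a median of 1.17 and the 5 cartilage markers a median of 1.56, all of both lists positive with 0 called. Their part in these differences was not tested.

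The letter of a line, 1 wildtype and 1 mutant line each, divided the Mest values more than the genotype did. In the quiescent sums Mest was at 388 and 373 CPM in the I lines and 690.3 and 759 CPM in the L lines, wildtype first, with no overlap, as for 27.7% of genes in this direction. The log2 difference, L minus I, was 0.93 (SE 0.10, adjusted p = 0.00784), and Mest was the 1 gene of the 7 called, where 0.521% of genes were. At day 2 it was 0.03 (SE 0.12, adjusted p = 0.9003), with 6.38% of genes called, and Mest therefore rose 28.3-fold and 27.7-fold in the I lines and 56.8-fold and 48.4-fold in the L lines. The difference of these rises, a comparison added after the values were seen, was 0.90 (SE 0.16, adjusted p = 0.0280), where 3.29% of genes were called. The call at quiescence did not hold without wildtype line I (adjusted p = 0.114) or mutant line L (adjusted p = 0.0683), and that of the rises did not hold without any 1 of the 4 lines or without day 8. The sizes stayed close, at 0.86 to 0.99 at quiescence and 0.78 to 1.02 for the rises when each line was left out. Peg3 and Peg10 differed between the letters by 0.20 (SE 0.13, adjusted p = 0.569) and 0.29 (SE 0.11, adjusted p = 0.303) at quiescence.

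Among the markers of other cell types, 1 passed the test between letters at quiescence, the neuronal tubulin gene Tubb3, which was lower in the L lines by 0.66 on the log2 scale (adjusted p = 0.0142). The 5 cartilage markers summed to 100.1 and 72.7 CPM in the quiescent I lines and 137 and 315 CPM in the L lines, wildtype first, and the 4 tested had a median log2 difference of 1.92 with 0 called; none of the 5 was at 0. The 6 macrophage and blood markers summed to 41.9 and 231 CPM in the I lines and 139 and 29.0 CPM in the L lines, so that they did not follow the letter. Of the 10 fibroblast markers 7 had a positive difference, with a median of 0.04, and the 1 called was Thy1, lower in the L lines by 0.90 (adjusted p = 0.0129). Tfpi2, of the Peg10 region, was lower by 1.68 (adjusted p = 0.0427). The part of these cells in the Mest difference was not tested.

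The genes with the pattern most like each of the 7 over the 12 quiescent libraries were found by Pearson's r of log2(CPM + 0.5) among 9930 genes with a mean of at least 5 CPM. The 12 libraries are 3 harvests of each of 4 lines and share those lines, so the values are descriptions. Mest was most like Pgcp (r = 0.975), Gprc5c (0.964) and Slc25a12 (0.964), and Peg3 most like Zfp292 (0.946), Stxbp4 (0.938) and Golph3l (0.931). Zim1 followed Map4k3 (0.931), Phactr2 (0.898) and Zfp192 (0.889), and Peg10 followed Ppp2r2d (0.941), Srsf7 (0.933) and Orc2 (0.920). Sgce was nearest to Fam103a1 (0.908), Pde7a (0.906) and Fam69a (0.901), Asb4 to Asap2 (0.941), Hoxb7 (0.920) and Meis1 (0.882), and Usp29 to Recql (0.907), Tox4 (0.883) and Maoa (0.861). Within the Peg3 domain, Peg3 and Zim1 had r = 0.803 over these libraries, with 205 genes closer to Peg3 than Zim1 was. Peg10 and Sgce had r = 0.479, and Peg3 and Mest 0.296. Over all 16 libraries no r is given, since day 2 and the quiescent days form separate clusters.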

How the data were processed

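Libraries were stranded, per the labels' protocols. The authors deposited a table of whole-number read counts per gene, not normalized. The submitters' processing notes name mm9, HTSeq 0.6.1p1, Bowtie2 2.2.9, TopHat2 2.1.1 and bcl2fastq 2.18. Neither the gene annotation nor the strandedness of the counting is given in the sources used here, so reads of genes that overlap on opposite strands cannot be told apart. Counts of days 8, 10 and 12 were summed per line. Quasi-likelihood tests of edgeR 4.0.16 (R 4.3.3, limma 3.58.1), with TMM scaling, filterByExpr and Benjamini-Hochberg adjustment over all genes kept, were run on these sums (15740 genes) or on the 16 libraries (15439 genes), calling an adjusted p under 0.05. All 7 genes passed both filters. CPM use TMM-scaled totals, and 3 counts are 0.0497 to 0.110 CPM; floors cover counting error only. The tests were also run on simulated counts for some of the comparisons, with the outcome not reported here. Those counts were drawn independently for each library, so shared lines and letters are not covered. Exon lengths are unions over the reference annotation.

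Groups, days and replicate numbers come from the labels. The chi-square of counts between the libraries of a group was 34.1 to 73.1 per degree of freedom, so none is a repeat deposit. Harvests of a line are paired by that line: deviations of day 2 and quiescent sums correlated at 0.234 in wildtype and 0.242 in mutant lines. The genes and lists were chosen with earlier results of these data known. Named are the 7 genes, Plagl1, of each list of related genes (cell type markers apart) up to 4 with the smallest p between states and any called there, and the 3 most alike genes over the quiescent libraries; those over all libraries are not given. Markers are named where they were called between letters at quiescence. Values of 2 listed genes are not reported here. The comparisons of the letter by state and of day 10 with the other quiescent days, and their alternatives, were added after the data were seen. Alternatives were DESeq2 1.42.0, RLE scaling, other filters on low counts, blocks, and leaving out a line or a day. No column belonged to other samples.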

Additional observations from a re-analysis of the deposited data

Results flagged for a closer look

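The difference in the Mest rise between lines with the letter L and lines with the letter I stood out as a difference between groups of lines. Its log2 value was 0.90 (SE 0.16, adjusted p = 0.0280 by edgeR). Both L lines rose more than both I lines, and each letter holds 1 wildtype and 1 mutant line. The comparison was added after the values were seen. Its call did not hold without any 1 of the 4 lines or without day 8.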

How the results depend on the processing

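The direction of the 5 called state changes held in every alternative run in both genotypes, with the line as a block included (7472 genes called in wildtype and 6633 in mutant lines, 5 of the 7 in each). Limits are the 2 lines per genotype, the low counts of Usp29, and the letters, whose meaning is not given; the cause of the shifts listed here was not tested. Scaling by RLE ended no call of the 7 genes. Leaving out each line in turn gave 4185 to 7755 genes called between states in wildtype lines (4185 without wildtype line I, 4380 without line L) against 7486. The log2 change of Usp29 in mutant lines ran from -0.20 to 1.13.

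Between genotypes every called count stayed small. DESeq2 called 3 genes in proliferation, 1 for the genotype by state, 14 at day 10 with 1 of the 7 among them (Zim1), and 19 for day 10 against days 8 and 12. Leaving out lines gave 1 to 3 genes in proliferation, 1 to 4 at quiescence, 0 to 2 at day 8, 0 to 51 at day 10 with 0 to 1 of the 7 (51 and Zim1 without mutant line I), 0 to 1 at day 12 and 0 to 6 for day 10 against the other days. The signs of uncalled differences were unsettled. At quiescence they turned to 0.017 for Peg3, -0.048 for Mest and 0.0046 for Peg10 without day 10, to 0.011 for Peg10 and -0.082 for Sgce without day 8, and for Sgce to -0.0037 with no filter and -0.0065 with the stricter filter. Peg3 at day 8 turned to 0.0015 with no filter. Without single lines the log2 ranges in proliferation were -0.20 to 0.36 for Peg3, -0.33 to 0.35 for Zim1, -0.53 to 0.22 for Usp29, -0.022 to 0.14 for Peg10 and -0.10 to 0.30 for Asb4. At quiescence they were -0.53 to 0.55 for Mest, -0.32 to 0.22 for Peg10, -0.13 to 0.13 for Sgce and -0.52 to 0.080 for Asb4. For the genotype by state they were -0.69 to 0.14 for Peg3, -0.59 to 0.46 for Mest and -0.29 to 0.084 for Peg10. By day they were -0.12 to 0.11 for Peg3 at day 8, -0.34 to 0.65 for Mest at day 10, and -0.22 to 0.25 for Peg3 and -0.38 to 0.036 for Zim1 at day 12.

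From day 8 to day 12, DESeq2 called 894 genes against 482, and the cell line as a block 943 with 3 of the 7 against 1. Leaving out lines gave 129 to 403 genes (184 without wildtype line I, 129 without wildtype line L) and 0 to 1 of the 7. The letter pairs correlated at 0.192 at day 2 and 0.109 at quiescence, and the letter as a block gave 2 genes at day 10 and 1 gene in each of the other genotype comparisons it entered, as without it; the letter is only a shared label here.

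Between letters at quiescence the genes called were 167 with no filter, 530 by DESeq2 and 131 with genotype as a term, against 82. Leaving out lines gave 0 to 253 genes and 0 to 1 of the 7. At day 2 DESeq2 called 1982 genes and leaving out lines 0 to 460, with -0.15 to 0.20 for Mest. For the letter by state the counts were 925 with no filter, 1789 by DESeq2 with 2 of the 7 (Peg3 joined Mest), 286 with genotype as a term, 300 without day 10, 242 without day 12, and 0 genes and 0 of the 7 without day 8, against 518. Leaving out lines gave 0 to 21 genes and 0 of the 7.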
